A study of Mus musculus with 45 samples.

Results

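The genes of antigen presentation in the mouse hippocampus are described here as 10 members chosen by symbol, of 15897 genes in the table. On the class I side 7 genes were followed: B2m, H2-D1, H2-K1, Tap1, Tapbp, Psmb8 and Psmb9. On the class II side 3 genes were followed: Cd74, H2-Aa and H2-Ab1. Each symbol was matched to 1 Ensembl gene, all 10 were in the table, and the rule used the symbols alone.

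Class I molecules carry peptides made from proteins inside the cell to its surface, where CD8 T cells read them. The peptides are cut by the proteasome, pumped into the endoplasmic reticulum by the TAP transporter and loaded onto a heavy chain paired with beta-2 microglobulin. Class II molecules are made of an alpha and a beta chain, are guided by the invariant chain to endosomes, present peptides from outside the cell to CD4 T cells, and in the brain are known mainly from microglia, from macrophages at its borders and from the choroid plexus stroma. Interferons raise the genes of both classes, class I in most cell types and class II mainly in professional antigen presenting cells.

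The values come from hippocampal mRNA sequencing of 45 female C57Bl/6J mice that differed in transgenes and in diet. A+ mice carried APPswe/PS1dE9, expressed from the mouse prion protein promoter, and T+ mice carried human Tau P301L, expressed from the CaMKII promoter, which is active mainly in forebrain excitatory neurons. Aw and Tw stand for the absence of each transgene, AwTw mice being wild type, and A+T+ mice came from crossing the lines. From 7 months of age until sacrifice at 13 months the mice ate a standard diet (STD, 5% fat and 0% cholesterol) or a typical Western diet (TWD, 21% fat and 0.15% cholesterol). On STD there were 4 mice of A+T+, 5 of A+Tw, 6 of AwT+ and 6 of AwTw, and on TWD each of the 4 genotypes had 6 mice. All mice were perfused with saline before dissection.

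Of the 10 members, 8 lie on chromosome 17 between positions 33915899 and 35267499 of GRCm38, the region of the mouse major histocompatibility complex, while B2m lies on chromosome 2 from 122147686 to 122153083 on the plus strand. RefSeq promoter windows (GRCm38.p6, 250 bases before to 50 bases after the annotated start) were searched for 8 of the 10 members. H2-Ab1 had no window and Cd74 was not searched, so H2-Aa was the only class II window. Each window was searched on both strands for 4 short motifs: TGACG, the core of the X2 element bound by CREB factors, ATTGG, the Y box bound by NF-Y, GGGATTCC, an NF-kappa-B core, and AANNGAAA, a core bound by interferon regulatory factors. X2 and Y are parts of the SXY module that class I and class II promoters share, so a window was also scored for TGACG followed on the same strand by ATTGG with 10 to 30 bases between them. The 4 member windows that held this arrangement are printed 5′ to 3′ on the strand of the gene, with every motif match in capitals. The arrangement was found in class I windows and in the H2-Aa window.
H2-K1 (chr17:34000298-34000597, minus strand): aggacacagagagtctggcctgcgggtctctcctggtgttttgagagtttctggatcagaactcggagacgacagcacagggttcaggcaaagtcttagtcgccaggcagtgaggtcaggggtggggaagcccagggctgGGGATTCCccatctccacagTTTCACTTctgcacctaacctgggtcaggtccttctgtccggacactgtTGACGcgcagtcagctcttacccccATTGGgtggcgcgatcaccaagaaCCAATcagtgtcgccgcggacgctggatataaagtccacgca
H2-D1 (chr17:35262844-35263143, plus strand): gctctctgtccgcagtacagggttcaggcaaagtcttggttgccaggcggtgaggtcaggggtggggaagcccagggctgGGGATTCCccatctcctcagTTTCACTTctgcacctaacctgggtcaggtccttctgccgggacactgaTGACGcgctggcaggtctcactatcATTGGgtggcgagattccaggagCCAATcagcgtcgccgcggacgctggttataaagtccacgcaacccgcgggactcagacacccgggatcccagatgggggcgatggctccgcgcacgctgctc
B2m (chr2:122147437-122147736, plus strand): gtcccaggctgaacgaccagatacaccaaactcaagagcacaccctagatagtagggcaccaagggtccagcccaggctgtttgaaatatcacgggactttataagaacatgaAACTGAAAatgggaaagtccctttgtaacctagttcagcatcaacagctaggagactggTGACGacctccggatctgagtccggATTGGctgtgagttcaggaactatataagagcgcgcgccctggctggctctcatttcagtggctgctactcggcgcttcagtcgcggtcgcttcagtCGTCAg
H2-Aa (chr17:34287774-34288073, minus strand): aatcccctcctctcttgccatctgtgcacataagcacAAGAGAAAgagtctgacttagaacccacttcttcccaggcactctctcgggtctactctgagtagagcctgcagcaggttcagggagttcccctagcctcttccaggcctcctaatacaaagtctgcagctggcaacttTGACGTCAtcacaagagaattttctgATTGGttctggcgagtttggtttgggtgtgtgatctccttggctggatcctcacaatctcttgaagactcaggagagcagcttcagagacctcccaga

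The arrangement was in 4 of the 8 member windows and in 0.743% of 32851 mouse windows of the same length. The spacing was 20 bases in H2-K1, H2-D1 and B2m and 21 bases in H2-Aa. In H2-Aa the TGACG matches on opposite strands overlap within a single TGACGTCA stretch. GGGATTCC was in H2-K1 and H2-D1 and in 1.06% of all windows, whereas TGACG was in 20.8% of all windows, the Y box letters were in 37.4% and AANNGAAA was in 23.9%. Tap1 and Psmb9 are transcribed away from each other, and their windows, which overlap by 275 bases, each held an X2 core and a Y box but not in the order and spacing searched. A match describes letters in the window and not a bound site.

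The deposited values were on a log2-like scale without counts, so the depth behind each value is unknown and every error given is a spread over mice. App, the mouse gene that resembles the A+ transgene, ranged from 15.05 to 15.80 in A+ and from 14.29 to 14.86 in Aw mice, and Prnp, the gene whose promoter drives that transgene, ranged from 14.66 to 15.02 against 13.28 to 13.98. Mapt and Camk2a ranges overlapped between T+ and Tw mice, so the table gave no check of the T+ label. Markers of hippocampal neurons were high in every mouse, with a mean level of 12.70 or more. Choroid plexus markers, which reflect tissue next to the hippocampus, varied widely, from a mean level of 5.92 to 10.55, and 1 mouse, A+Tw/TWD replicate 6, had the highest value of all 45 mice for 7 of the 10 members, the exceptions being Tapbp, Psmb8 and Psmb9.

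Genes of both classes were higher in A+ mice than in Aw mice. Over tau genotype and diet, 9 of the 10 members were higher in the 21 A+ mice than in the 24 Aw mice at an adjusted p under 0.05, by limma with Benjamini-Hochberg adjustment over all genes, the rule for a call throughout, namely 6 of the 7 class I genes and all 3 class II genes, while 3.77% of all genes passed the same test in either direction and 3.11% passed it as higher. The median log2 difference was 0.62 over the class I genes, 0.82 over the class II genes and -0.02 over all genes. Tap1 was the member that did not pass. Differences are on the deposited log2-like scale and come from a fit of the 8 groups and the batch. In bulk tissue, more cells of a type and more RNA per cell cannot be told apart.

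**Figure D1:**
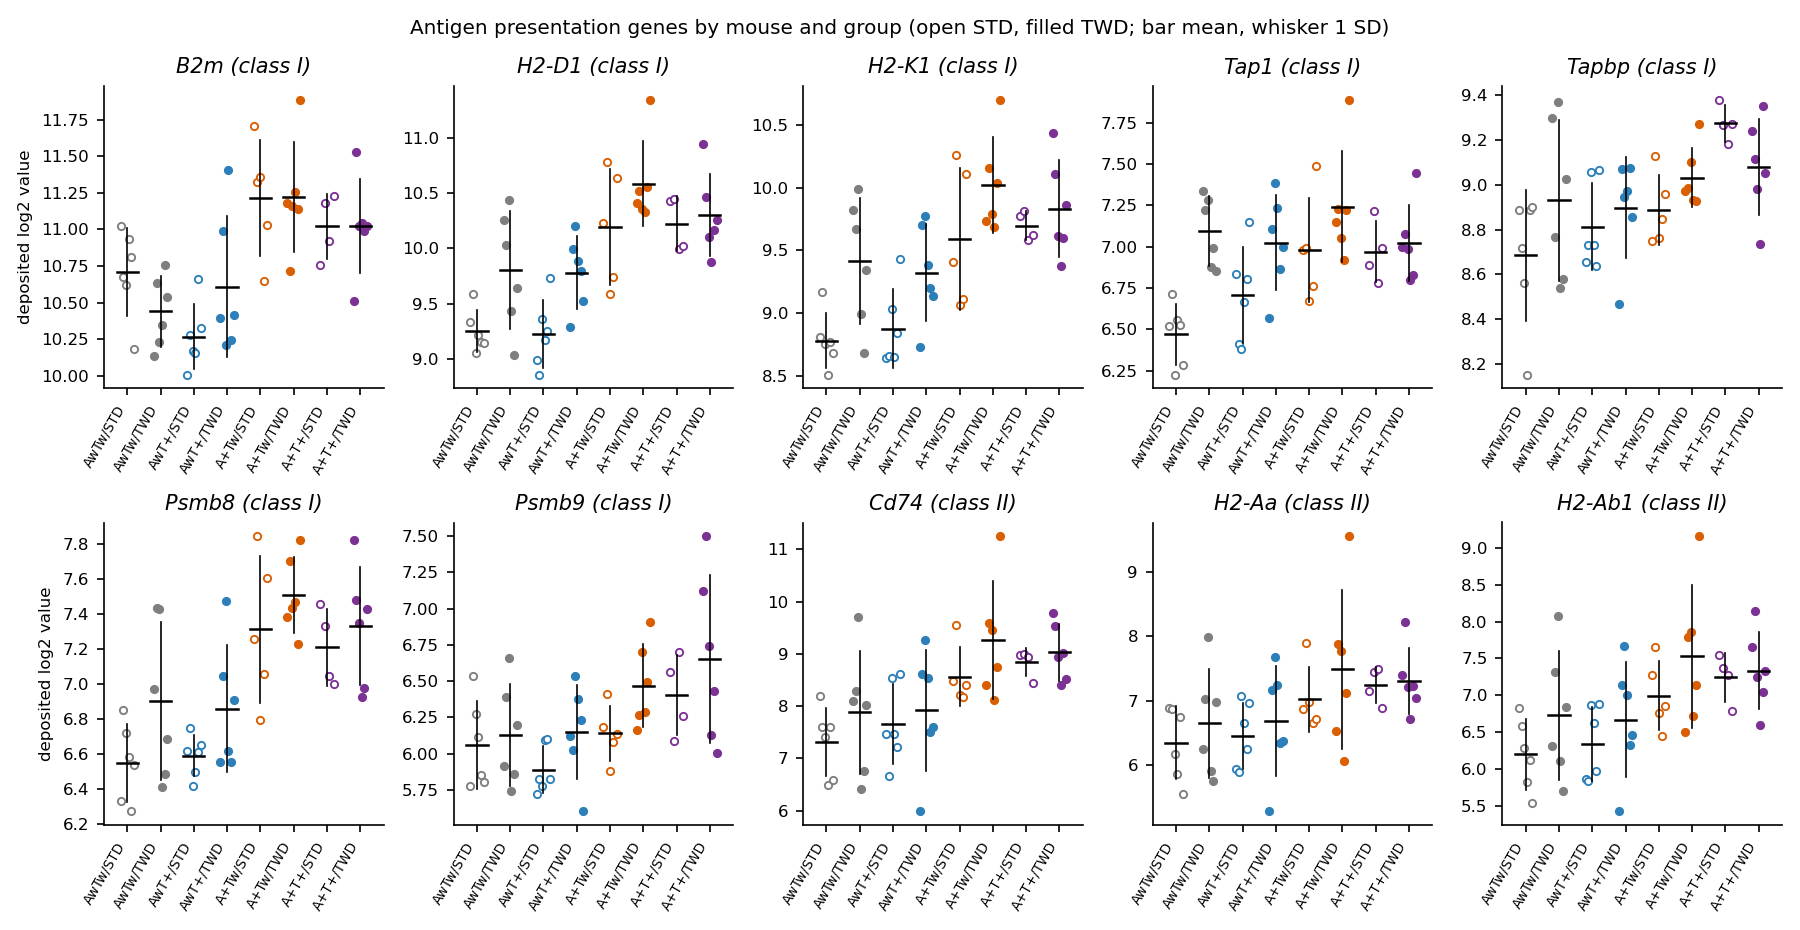
Deposited log2 value (y axis) of each of the 10 genes in every mouse, by group (x axis), with open points for STD, filled points for TWD, bars at the group mean and whiskers of 1 SD. The A+ groups lie to the right in each panel, with H2-D1 between 9.59 and 11.34 in A+ mice against 8.86 to 10.43 in Aw mice, and the 3 class II genes show the widest scatter within groups.

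H2-D1 and H2-K1 encode the classical class I heavy chains of this strain. H2-D1 was 9.05, 9.19 and 9.59 (lowest, median, highest) in AwTw/STD mice and 8.86, 9.21 and 9.73 in AwT+/STD mice. In the corresponding A+ groups it was 9.59, 9.74, 10.23, 10.63 and 10.78 in A+Tw/STD and 10.00, 10.02, 10.43 and 10.45 in A+T+/STD. Every A+T+/STD mouse was thus above every AwT+/STD and AwTw/STD mouse, whereas the lowest A+Tw/STD mouse met the highest AwTw/STD mouse at the printed precision.

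On TWD, where the A+ and Aw groups overlapped, H2-D1 was 9.03, 9.84 and 10.43 in AwTw/TWD, 9.29, 9.84 and 10.20 in AwT+/TWD, 10.32, 10.46 and 11.34 in A+Tw/TWD and 9.88, 10.21 and 10.95 in A+T+/TWD. All 21 A+ mice were above the Aw median, and the pooled log2 difference was 0.83 ± 0.11 (SE, adjusted p = 4.14e-07). H2-K1 followed H2-D1 closely, at 8.51 to 9.43 in Aw and 9.06 to 10.26 in A+ mice on STD, and at 8.68 to 9.99 against 9.38 to 10.70 on TWD. Its pooled difference was 0.71 ± 0.11 (adjusted p = 1.9e-05), again with all 21 A+ mice above the Aw median.

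The pair is not independent in sequence. Of the 50-base words in annotated H2-D1 transcripts 13.9% also occurred in other genes, and 5.58% occurred in H2-K1. For H2-K1 these shares were 6.87% and 5.43%, so a part of the reads of each could have been assigned to the other or to a gene such as H2-Q1. B2m, Psmb8, Psmb9, Cd74, H2-Aa and H2-Ab1 shared no such word with another gene.

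B2m encodes beta-2 microglobulin, the light chain of class I molecules. It was 10.19, 10.74 and 11.03 in AwTw/STD and 10.01, 10.23 and 10.66 in AwT+/STD, against 10.65, 11.03, 11.33, 11.36 and 11.71 in A+Tw/STD and 10.76, 10.92, 11.18 and 11.23 in A+T+/STD. On TWD it was 10.14, 10.44 and 10.76 in AwTw and 10.21, 10.40 and 11.40 in AwT+, while A+Tw mice had 10.72, 11.17 and 11.89 and A+T+ mice 10.51, 11.03 and 11.53. B2m thus separated completely only between A+T+/STD and AwT+/STD among these matched pairs. The pooled difference was 0.62 ± 0.10 (adjusted p = 1.95e-05), with all 21 A+ mice above the Aw median.

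All 4 genes of peptide supply and loading had fitted differences above 0 in A+ mice, and 3 of them passed the test. Psmb8 and Psmb9 encode immunoproteasome subunits that replace standard catalytic subunits of the proteasome. Psmb8 ranged from 6.27 to 6.85 in Aw and from 6.79 to 7.84 in A+ mice on STD, and from 6.41 to 7.47 against 6.92 to 7.82 on TWD. Its pooled difference was 0.63 ± 0.09 (adjusted p = 5.33e-06), with 21 of 21 A+ mice above the Aw median. For Psmb9 the ranges overlapped more, at 5.72 to 6.53 against 5.88 to 6.70 on STD and 5.60 to 6.66 against 6.01 to 7.50 on TWD. Psmb9 had a pooled difference of 0.38 ± 0.10 (adjusted p = 0.0205), with 19 of 21 A+ mice above the Aw median.

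Tapbp encodes tapasin, which holds empty class I molecules at the transporter. Its difference was 0.24 ± 0.07 (adjusted p = 0.0354), with 17 of 21 A+ mice above the Aw median. The 4 A+T+/STD mice had 9.18, 9.27, 9.27 and 9.38, above all AwT+/STD mice (8.64 to 9.07) and all AwTw/STD mice (8.15 to 8.90), whereas A+Tw/STD mice (8.75, 8.76, 8.85, 8.96 and 9.13) overlapped both. Tap1, a subunit of the TAP transporter, had a difference of 0.24 ± 0.08 that did not pass (adjusted p = 0.11), with 16 of 21 A+ mice above the Aw median.

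Of the 10 members Cd74 had the largest fitted difference, and the 3 class II genes had the widest errors. Cd74, the invariant chain, was 6.48, 7.50 and 8.19 in AwTw/STD and 6.66, 7.47 and 8.61 in AwT+/STD, against 8.17, 8.21, 8.40, 8.47 and 9.54 in A+Tw/STD and 8.44, 8.94, 8.98 and 8.999 in A+T+/STD. On TWD it was 6.41, 8.06 and 9.70 in AwTw and 5.99, 8.07 and 9.27 in AwT+, while A+Tw mice had 8.12, 9.10 and 11.25 and A+T+ mice 8.40, 8.98 and 9.77. All 21 A+ mice were above the Aw median of Cd74, while 8 of the 24 Aw mice were above the lowest A+ mouse.

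The pooled difference of Cd74 was 1.27 ± 0.25 (adjusted p = 0.000639). H2-Ab1, the I-A beta chain, ranged from 5.43 to 8.08 in Aw and from 6.45 to 9.16 in A+ mice, a pooled difference of 0.82 ± 0.19 (adjusted p = 0.00641) with 21 of 21 A+ mice above the Aw median. H2-Aa, the I-A alpha chain, ranged from 5.28 to 7.99 and from 6.06 to 9.55, a difference of 0.75 ± 0.22 (adjusted p = 0.0368) with 20 of 21. SEs were 0.19 to 0.25 for the class II genes and 0.07 to 0.11 for the class I genes. The 95% intervals of the pooled differences ran from 0.76 to 1.78 for Cd74 and from 0.61 to 1.06 for H2-D1, and so overlapped; a difference in effect between the classes was not tested.

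Within each of the 2 batches that the sample labels give all 10 pooled A+ differences were above 0, but 3 members passed in either batch: B2m, H2-D1 and Psmb8 in batch 0 and H2-D1, H2-K1 and Cd74 in batch 1. The shares of all genes called within each batch and in the covariate fit that follows are not given. Choroid plexus markers averaged 9.03 ± 1.28 (SD) in A+ and 8.11 ± 1.73 in Aw mice, and none of the 8 markers passed the test. With their mean as a covariate, an alternative chosen after seeing the data, 5 members passed: B2m, H2-D1, H2-K1, Psmb8 and Cd74. In that fit the differences were 0.91 for Cd74 (adjusted p = 0.00564), 0.55 for H2-Ab1 (adjusted p = 0.0719), 0.44 for H2-Aa (adjusted p = 0.352), 0.31 for Psmb9 (adjusted p = 0.132) and 0.18 for Tapbp (adjusted p = 0.278). Tapbp and H2-Aa also lost their call in 16 and 18 of the 45 fits that each left out 1 mouse, with Tapbp at 0.22 or more and H2-Aa at 0.67 or more in those fits.

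The A+ transgene was next compared within each tau genotype and diet, in 4 comparisons that share no mice. Against a background of 0.925% of genes passing between A+Tw/STD and AwTw/STD mice, 2 members passed, H2-D1 (0.93 ± 0.22, adjusted p = 0.0194) and Psmb8 (0.75 ± 0.19, adjusted p = 0.0329). On TWD the same pair of genotypes gave 2 members against 0.824% of genes, B2m (0.80 ± 0.19, adjusted p = 0.0229) and H2-D1 (0.83 ± 0.21, adjusted p = 0.0446). A+T+/STD against AwT+/STD gave H2-D1 alone (1.00 ± 0.23, adjusted p = 0.0171) against 0.95% of genes. A+T+/TWD against AwT+/TWD gave 0 members in the limma fit against 0.761% of genes, although 6 of the 10 had an unadjusted p under 0.05.

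**Figure D2:**
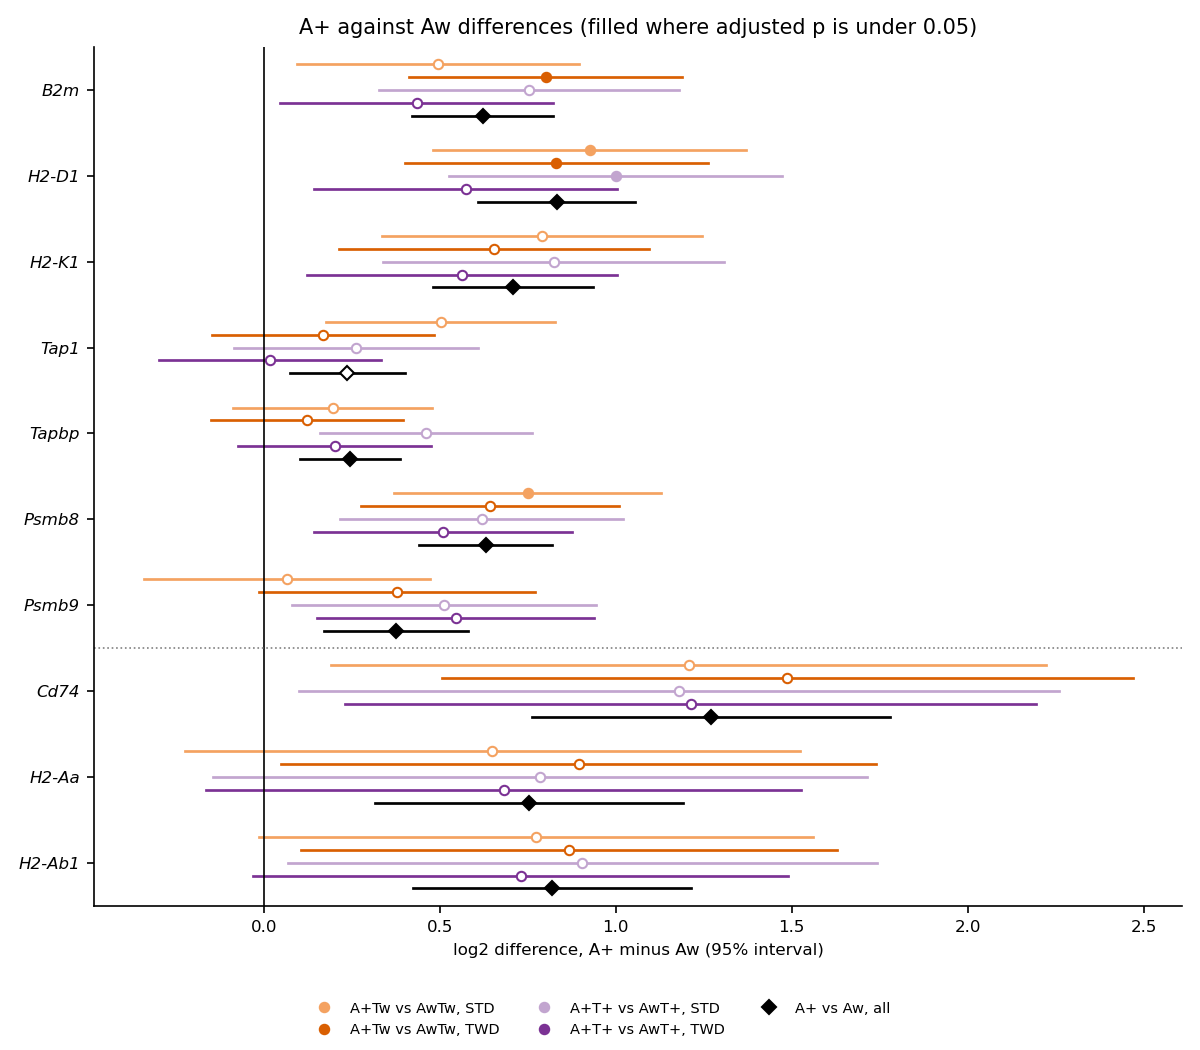
Log2 difference between A+ and Aw mice (x axis) for each gene (y axis) in the 4 comparisons that share no mice (circles) and over all mice (diamonds), with 95% intervals and filled symbols where the adjusted p was under 0.05. The points of all 10 genes lie to the right of 0 in each comparison, from 0.02 for Tap1 to 1.49 for Cd74, and the intervals of the class II genes, below the dotted line, are the widest.

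No class II gene passed in any of the 4 comparisons by limma, although 1, 3, 2 and 1 of the 3 had an unadjusted p under 0.05 in the order given above. Cd74 had the differences 1.21 ± 0.50, 1.49 ± 0.49, 1.18 ± 0.53 and 1.21 ± 0.49. H2-D1 had 0.93, 0.83, 1.00 and 0.57, and Tap1 had 0.50, 0.17, 0.26 and 0.02. H2-D1 was therefore the member called most often, in 3 of the 4 comparisons.

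The calls within single comparisons did not all hold when 1 mouse was left out. H2-D1 lost its call on STD in A+Tw mice without A+Tw/STD replicate 2 (0.79, adjusted p = 0.155), without A+Tw/STD replicate 5 (0.82, adjusted p = 0.119) and without 2 of the AwTw/STD mice, replicates 3 (0.87, adjusted p = 0.0647) and 5 (0.90, adjusted p = 0.0562). On TWD it lost its call in 26 of the 45 fits, and its adjusted p lay close to the threshold. Some of these fits left out a mouse of neither group, as without AwT+/TWD replicate 2 (0.83, adjusted p = 0.0527 by limma). The adjusted p was as high as 0.214 without A+Tw/TWD replicate 6. B2m on TWD was not called without that mouse (0.67, adjusted p = 0.117) or without AwTw/TWD replicates 1, 3 or 4 (0.74, 0.76 and 0.79).

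Within batch 0 and batch 1 alone these comparisons gave 1 and 0 members for A+Tw on TWD and 0 and 0 for A+T+ on STD, with 2 to 4 mice in a group. For A+Tw on STD batch 1 alone gave 0 members, and batch 0 says nothing of these calls, since it held 1 A+Tw/STD mouse. The shares of all genes called within each batch are not given, so these counts have no background beside them. Psmb8 on STD lost its call in 6 of the 45 fits, with the difference falling as low as 0.62. H2-D1 in A+T+/STD against AwT+/STD lost it without A+T+/STD replicate 1 (0.96), A+T+/STD replicate 2 (0.90) or AwT+/STD replicate 2 (0.91). With the choroid plexus covariate neither B2m (0.74, adjusted p = 0.0613) nor H2-D1 (0.72, adjusted p = 0.127) passed between A+Tw/TWD and AwTw/TWD, and H2-D1 and Psmb8 kept their calls between A+Tw/STD and AwTw/STD.

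In A+T+/STD against AwT+/STD, 5 members had groups that did not overlap, B2m, H2-D1, H2-K1, Tapbp and Psmb8, all higher in A+T+, where 5.66% of all genes did not overlap. In the 3 other matched pairs 0 members were free of overlap, against 1.27% of genes for A+Tw and AwTw on STD, 0.667% on TWD and 0.585% for A+T+ and AwT+ on TWD. The A+T+/STD group was the smallest, with 4 mice, and its class I mean ran only from 8.60 to 8.76.

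A+T+ mice were also set against AwTw mice, which serve as controls in the A+Tw comparison too. On STD 3 members passed, against 1.32% of genes: H2-D1 (1.00 ± 0.24, adjusted p = 0.0148), H2-K1 (0.94 ± 0.24, adjusted p = 0.0312) and Tapbp (0.60 ± 0.15, adjusted p = 0.0256). Cd74 had a difference of 1.58 ± 0.54 there (adjusted p = 0.17). The groups did not overlap for 7 members of both classes, H2-D1, H2-K1, Tap1, Tapbp, Psmb8, Cd74 and H2-Aa, where 4.31% of all genes did not overlap. On TWD 0 members passed by limma against 0.73% of genes, 6 of them with an unadjusted p under 0.05. With the choroid plexus covariate 0 members passed on STD, where H2-D1 was at 0.80 (adjusted p = 0.146), H2-K1 at 0.72 (adjusted p = 0.268) and Tapbp at 0.46 (adjusted p = 0.239). The share of all genes called with that covariate is not given. Each of the 3 calls was also lost without A+T+/STD replicate 1 (H2-D1 at 0.96, H2-K1 at 0.94, Tapbp at 0.57) or replicate 2 (0.90, 0.88 and 0.59). H2-K1 and Tapbp were further lost without any other A+T+/STD mouse or without AwTw/STD replicates 3 or 4, Tapbp falling to 0.49, and H2-K1 also without AwTw/STD replicates 5 or 6 (0.93 and 0.94).

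Tau P301L alone did not move the members past the test. Between AwT+ and AwTw mice 0 members passed on STD and 0 on TWD by limma, where 0% and 0% of all genes passed. At an unadjusted p under 0.05 the counts were 1 and 0, the single one being B2m on STD, at 10.27 ± 0.22 (SD) in AwT+ and 10.71 ± 0.30 in AwTw mice, a difference of -0.43 (95% interval -0.81 to -0.05). On STD the interval of Cd74 ran from -0.57 to 1.37 and that of H2-D1 from -0.42 to 0.43, so differences as large as those seen with A+ lay within the interval for Cd74 and outside it for H2-D1.

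Over APP/PS1 genotype and diet, T+ against Tw gave 0 members, also at an unadjusted p under 0.05, against 0.0189% of all genes. The T+ differences ran from -0.16 for B2m to 0.15 for Cd74. The A+ difference was not found to depend on tau: 0 members and 0% of all genes passed when the A+ difference in T+ mice was set against that in Tw mice, 0 of the members having an unadjusted p under 0.05. The intervals of this contrast were -0.53 to 0.35 for H2-D1 and -1.16 to 0.86 for Cd74.

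TWD was accompanied by higher levels of 4 class I genes. Over all genotypes 4 of the 10 members were higher in the 24 TWD mice than in the 21 STD mice, which is to be read against 29.4% of all genes called in either direction and 16% called higher, so the members' share was 4 of 10 where 16% of the table rose. The called members were H2-K1 (0.44 ± 0.11), Tap1 (0.34 ± 0.08) and H2-D1 (0.43 ± 0.11), each at an adjusted p of 0.0157, and Psmb8 (0.25 ± 0.09, adjusted p = 0.0334).

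Of the 10 members Tap1 had the most TWD mice above the STD median. It was 6.23, 6.52 and 6.72 in AwTw/STD against 6.85, 7.11 and 7.34 in AwTw/TWD, and 6.38, 6.74 and 7.15 in AwT+/STD against 6.57, 7.05 and 7.38 in AwT+/TWD. In A+Tw mice it was 6.67, 6.77, 6.98, 6.99 and 7.49 on STD against 6.92, 7.19 and 7.89 on TWD, and in A+T+ mice 6.78, 6.89, 6.99 and 7.21 against 6.80, 6.99 and 7.44. All AwTw/TWD mice were above all AwTw/STD mice, the other 3 genotypes overlapped, and that count was 23 of 24. Such a lack of overlap between AwTw/TWD and AwTw/STD was seen in 0.352% of all genes.

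H2-K1 was above the STD median in 21 of 24 TWD mice, H2-D1 in 20 and Psmb8 in 18. B2m did not pass, at 0.03 ± 0.10 (95% interval -0.17 to 0.23) with 13 of 24 TWD mice above the STD median. Tapbp was at 0.09 ± 0.07 (adjusted p = 0.335) and Psmb9 at 0.23 ± 0.10 (adjusted p = 0.0627). None of the 3 class II genes passed by limma, H2-Ab1 alone having an unadjusted p under 0.05, and their differences were 0.46 ± 0.24 for Cd74 (adjusted p = 0.136), 0.40 ± 0.19 for H2-Ab1 (adjusted p = 0.0974) and 0.29 ± 0.21 for H2-Aa (adjusted p = 0.283).

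**Figure D3:**
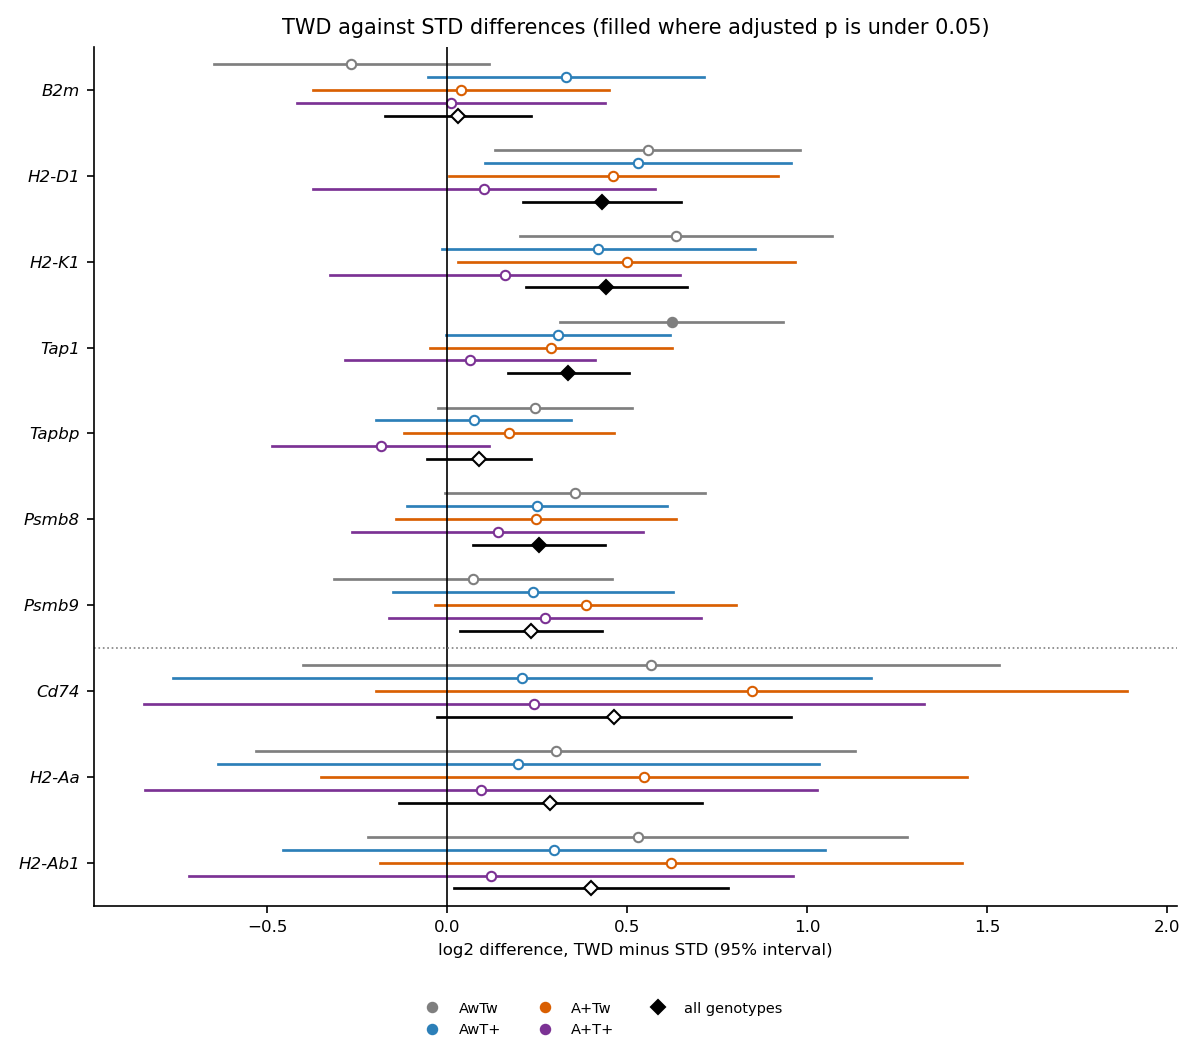
Log2 difference between TWD and STD mice (x axis) for each gene (y axis) within each genotype (circles) and over all genotypes (diamonds), with 95% intervals and filled symbols where the adjusted p was under 0.05. H2-D1, H2-K1, Tap1 and Psmb8 are filled over all genotypes, and the A+T+ circle is the nearest of the 4 genotypes to 0 for 7 of the 10 genes, at 0.10 for H2-D1 and 0.06 for Tap1.

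The diet calls changed with the batch and with a sample score. In batch 1 alone 5 members passed, H2-D1, H2-K1, Tap1, Psmb9 and Cd74, and in batch 0 alone 0 did. The shares of all genes called in these fits are not given, so the counts have no background beside them. By limma an unadjusted p of 0.02 for Psmb9 became an adjusted p of 0.0491 in batch 1 alone. In batch 0 alone 0.0622 for B2m became 0.82, so the adjustment itself differed. Cd74 was at 0.87 in batch 1 and at -0.19 in batch 0, and H2-D1 at 0.60 and 0.20. A score was made by projecting each mouse's values on the leading axis of the variation left within groups, which held 41.3% of that variation. It averaged -0.45 ± 0.85 (SD) in STD and 0.39 ± 0.97 in TWD mice, so as a covariate it can take up a part of the diet difference. With it as a covariate 0 members passed and H2-D1 was at 0.21, H2-K1 at 0.20, Tap1 at 0.25 and Psmb8 at 0.05. Tap1 there had an unadjusted p of 0.00623 and an adjusted p of 0.564 by limma. The share of all genes called in that fit is not given.

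Choroid plexus markers went the other way with diet, at 8.76 ± 1.53 (SD) in STD and 8.35 ± 1.64 in TWD mice, with none of the 8 passing. With their mean as a covariate 8 members passed, the 4 above together with Psmb9 (0.26, adjusted p = 0.0323), Cd74 (0.64, adjusted p = 0.0147), H2-Ab1 (0.53, adjusted p = 0.0125) and H2-Aa (0.44, adjusted p = 0.0362). The share of all genes called in that fit is not given, so the 8 cannot be set against a background. The 16% called higher and 29.4% called in either direction belong to the fit without this covariate. Psmb8 lost its call in 7 of the 45 fits that left out 1 mouse.

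Within single genotypes 1 member passed in AwTw mice, Tap1 (0.62 ± 0.15, adjusted p = 0.0498), against 9.35% of all genes, with H2-K1 just outside (0.64 ± 0.21, adjusted p = 0.0502). The Tap1 call was lost in 32 of the 45 fits that left out 1 mouse. Over all 45 fits its difference ran from 0.57 to 0.68. Leaving out a mouse of another genotype could also end the call at an unchanged 0.62, as without AwT+/TWD replicate 1 (adjusted p = 0.0529 by limma). In the 3 transgenic genotypes 0 members passed by limma, as did 0% of all genes in each, and an unadjusted p under 0.05 was found for 1 member with tau alone, 2 with APP/PS1 alone and 0 with both. The diet difference of H2-D1 was 0.56 in wild-type mice, 0.53 with tau alone, 0.46 with APP/PS1 alone and 0.10 with both, and that of H2-K1 was 0.64, 0.42, 0.50 and 0.16.

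Whether the A+ difference changed with diet was tested directly. The A+ difference on TWD minus that on STD passed for 0 members and for 0% of all genes, and 0 members had an unadjusted p under 0.05. It was -0.29 ± 0.16 for Tap1, -0.26 ± 0.22 for H2-D1, -0.20 ± 0.23 for H2-K1 and 0.16 ± 0.51 for Cd74. The 95% interval for Cd74 ran from -0.87 to 1.19.

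In both classes all 4 A+ groups had higher means than all 4 Aw groups. The class I mean was lowest in AwT+/STD mice (8.05 ± 0.15, SD, n = 6) and highest in A+Tw/TWD mice (8.87 ± 0.27, n = 6), and the class II mean was lowest in AwTw/STD mice (6.62 ± 0.55, n = 6) and highest in A+Tw/TWD mice (8.09 ± 1.11, n = 6). Of the 7 steps between neighbouring groups 1 was larger than both groups' SD for H2-D1 and for H2-K1, the step from AwTw/STD or AwT+/STD up to AwT+/TWD, and 0 were for each of the other 8 members.

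**Figure D4:**
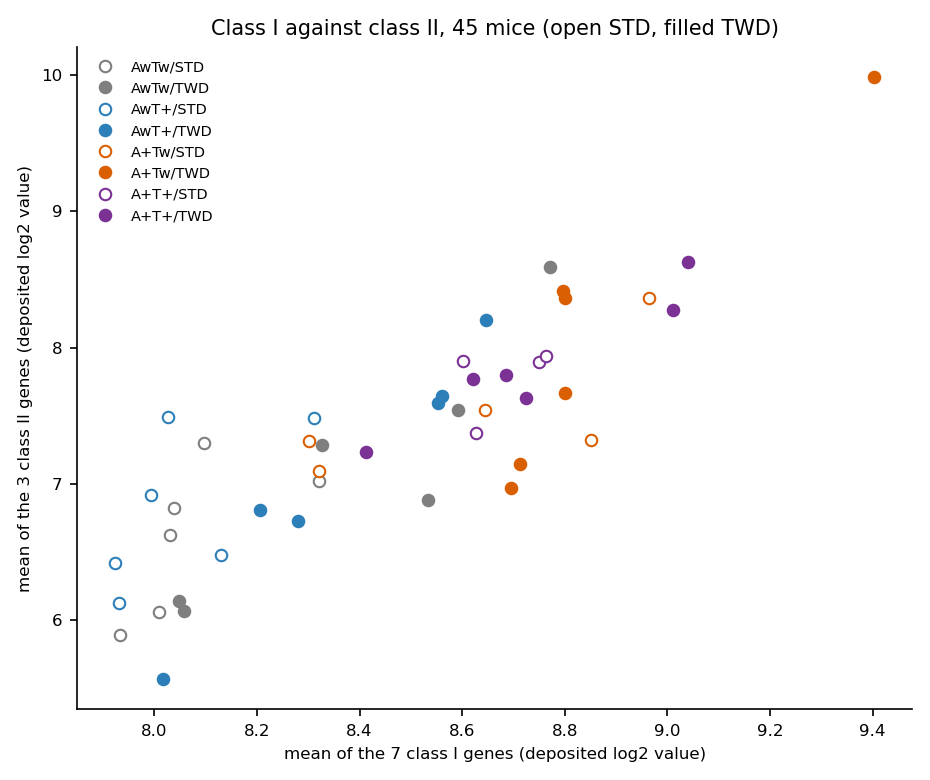
Mean deposited log2 value of the 7 class I genes (x axis) against that of the 3 class II genes (y axis), 1 point per mouse, coloured by genotype, open for STD and filled for TWD. Class I spans 7.92 to 9.40 and class II 5.57 to 9.99, both lowest in Aw mice, and A+Tw/TWD replicate 6 stands alone at the upper right.

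The SD left after group and batch was 0.87 for Cd74, 0.75 for H2-Aa and 0.67 for H2-Ab1, at the 98.7, 97.8 and 96.7 percentiles of all genes. For the class I genes it ran from 0.23 for Tapbp to 0.38 for H2-K1, at the 36.0 to 80.4 percentiles. Among the 1589 genes that shared a bin with Cd74, of 10 equal bins of mean level, the median SD was 0.26.

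After group and batch were fitted, the 3 class II genes moved together over the 45 mice, with Pearson correlations of 0.927 to 0.952. H2-D1 and H2-K1 had 0.955, part of which can come from the shared sequence given above. The 21 pairs within class I ran from -0.142 to 0.955 with a median of 0.486, and the 21 pairs between classes from 0.15 to 0.80 with a median of 0.57. H2-K1 was thus more like Cd74 (0.80) than like Psmb9 (0.49) or B2m (0.02). B2m stood apart from its class, at -0.14 to 0.26 with the other 6 class I genes. The points share libraries and batches, and no test was made of these correlations.

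**Figure D5:**
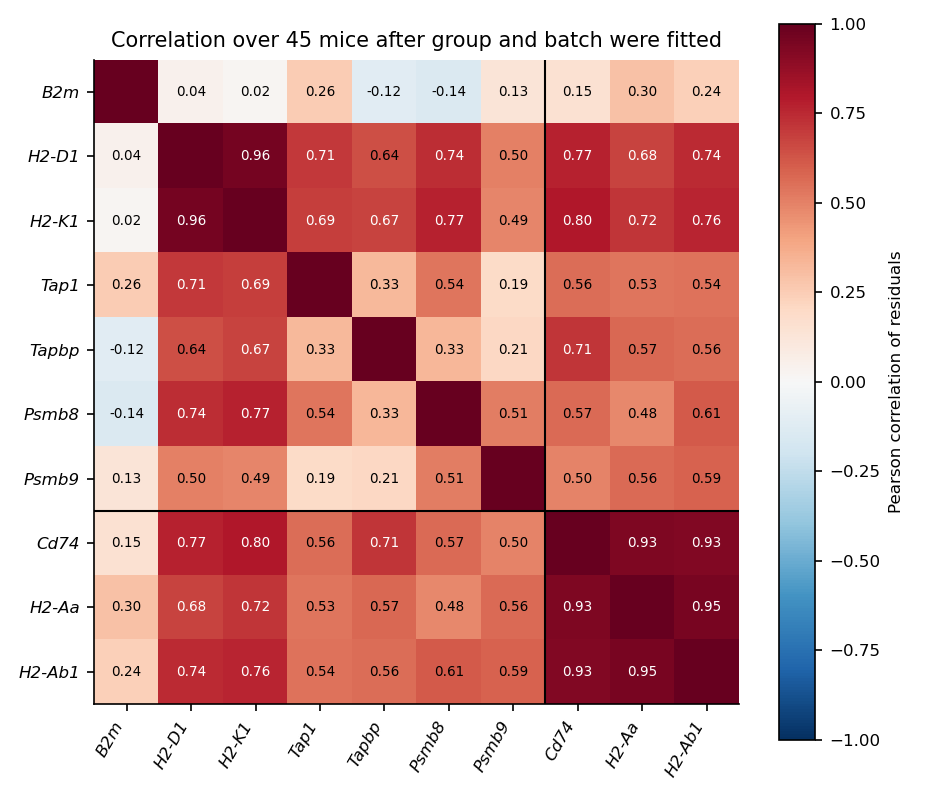
Pearson correlation between each pair of genes over 45 mice after group and batch were fitted, with the black lines parting class I from class II. Class II forms a block at 0.927 to 0.952, H2-D1 and H2-K1 are the closest class I pair at 0.955, and the B2m row runs from -0.14 to 0.30.

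The same residuals were set beside those of cell type markers, again as a description. The class I mean had 0.48 with 15 microglia markers, 0.40 with 6 border macrophage markers, 0.46 with 8 choroid plexus markers and -0.47 with 7 neuron markers. The class II mean had 0.22, 0.59, 0.65 and -0.59 with these lists. With 8 endothelial, 3 oligodendrocyte and 4 astrocyte markers the class I mean had 0.37, 0.33 and -0.33, and the class II mean 0.29, 0.21 and -0.40. With 4 red blood cell and 2 dendritic cell markers the class I mean had 0.22 and -0.28, and the class II mean -0.06 and -0.29. With the 3 standard catalytic subunits of the proteasome, which mark no cell type, the class means had 0.61 and 0.40. B2m had -0.05 with the microglia markers and 0.57 with the 9 markers of plaque-associated microglia, a list with which H2-D1 had 0.08 and Cd74 0.17.

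Marker lists also moved with the A+ transgene. Counts with A+, here and in the lists below, stand beside 3.11% of all genes called higher and 3.77% called in either direction. Of 15 microglia markers 12 were higher in A+ mice and none lower, and their mean level ran from 9.19 to 9.87 in A+ and from 8.41 to 9.04 in Aw mice without overlap. Of 9 markers of plaque-associated microglia 8 were higher, among them Cst7 (4.13) and Itgax (2.32), named after their values were seen, with mean levels of 8.36 to 8.98 against 7.02 to 7.68. Since neither list's mean overlapped between A+ and Aw mice, a part of the members' difference that goes with microglial marker level and a part that goes with the A+ genotype cannot be told apart.

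Markers of border macrophages gave 0 of 6 in the table, with mean levels of 5.77 to 6.55 in A+ and 5.55 to 6.41 in Aw mice, and Pf4 and Ms4a7 were not in the table. Dendritic cell markers gave 0 of 2 (mean levels of 6.72 to 7.19 and 6.75 to 7.29), and T and NK cell markers and B cell markers had 1 gene each in the table and 0 calls. Cd3d, Cd3e, Cd3g, Cd8a, Cd4 and Ms4a1 were not in the table, nor was any of 5 monocyte and neutrophil markers. Endothelial markers gave 0 of 8, red blood cell markers 0 of 4, neuron markers 0 of 7, oligodendrocyte markers 0 of 3 and astrocyte markers 1 of 4 higher. Their part in the members' differences was not tested, other than that of the choroid plexus markers above.

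Counts with diet, here and for the pathway lists, are to be read against the 16% of all genes called higher and the 29.4% called in either direction. With diet 8 of the 15 microglia markers were higher and 1 lower, and 0 of the 9 plaque-associated ones passed. In the lists of other cell types 1 dendritic marker was lower, 1 endothelial, 1 neuron, 1 astrocyte and 1 oligodendrocyte marker were higher, and 1 endothelial, 2 neuron and 1 astrocyte markers were lower. Border macrophage, choroid plexus, red blood cell, T and NK cell and B cell markers gave 0 calls with diet.

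The remaining genes of the pathway were taken from lists. On the class I side 7 of 20 further genes in the table were higher in A+ mice and 0 lower, with a median difference of 0.18. They included the nonclassical heavy chain genes H2-T23 (0.62 ± 0.11), H2-Q7 (0.60 ± 0.12), H2-Q4 (0.42 ± 0.09) and H2-M3 (0.38 ± 0.06). With diet 9 of the 20 were higher and 1 lower, the median being 0.20.

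On the class II side 8 of 11 further genes in the table were higher in A+ mice and 0 lower, with a median of 0.55. Ctss (1.13 ± 0.05), Ctsl (0.51 ± 0.06) and Lgmn (0.34 ± 0.05) encode endosomal proteases that cut the invariant chain or antigens, and Ifi30 (0.40 ± 0.09) encodes a thiol reductase of the same compartment. H2-DMb1 (0.55 ± 0.12), H2-Oa (0.56 ± 0.06) and H2-Ob (0.64 ± 0.06) encode chains that control peptide loading, and Cd86 (0.65 ± 0.10) encodes a costimulatory ligand. H2-Eb1, H2-DMa and Cd80 did not pass with A+, although H2-Eb1 was the gene most like the class II members (Pearson 0.955). With diet 2 of the 11 were higher, a share near that of all genes. Ciita, the class II transactivator, H2-Ea, H2-Ea-ps, H2-DMb2, Cd40 and, on the class I side, Cd1d1 were not in the table.

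Of 20 regulators 4 were higher in A+ mice and 0 lower, the median difference being 0.01, and the calls included Irf8 (1.08 ± 0.06), an interferon regulatory factor of the myeloid lineage, Ifnar2 (0.33 ± 0.08), a chain of the type I interferon receptor, and Ifngr1 (0.24 ± 0.05), a chain of the interferon gamma receptor. The remaining call was Rela (0.20 ± 0.06), an NF-kappa-B subunit, named after its value was seen. With diet 3 of the 20 were higher and 3 lower, a share near that of all genes. The standard catalytic subunits of the proteasome gave 0 of 3 with A+ (median 0.09) and 2 of 3 higher with diet, Psmb5 (0.38) and Psmb6 (0.35), named after their values were seen, which are the subunits that Psmb8 and Psmb9 replace.

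Over all 45 mice the genes with the pattern most like the class I members were H2-T23 (Pearson 0.935), Lgals3bp (0.925), Ctsz (0.897), H2-Q7 (0.888) and C1qa (0.881). For the class II members they were H2-Eb1 (0.955), H2-T23 (0.895), Bst2 (0.866), Lgals3bp (0.862) and Ifi30 (0.848). H2-T23 and Lgals3bp were in both lists, and H2-T23 and H2-Q7 share 50-base words with H2-K1 or H2-D1. Likeness was measured against the mean of the standardised member values and includes the difference between A+ and Aw mice. On residuals H2-T23 and H2-Eb1 stayed first for class I and class II (0.888 and 0.967), while Ctsz fell to rank 35 and C1qa to rank 137 for class I.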

How the data were processed

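Hippocampal mRNA of 45 mice was sequenced as single reads from stranded libraries. The authors trimmed reads with Trimmomatic 0.38 after FastQC 0.11.8, removed ribosomal and mitochondrial reads with Bowtie 2 2.2.3, quantified transcripts with kallisto 0.44.0 on the mm10 transcriptome, and summed them to genes. Genes with a mean count above 10 were kept. The log2-like values that the authors deposited come from the variance-stabilizing transformation of DESeq2 1.22.2, with the batch removed by limma 3.38.3. The counts behind the values are therefore unknown, and low values are compressed. The paper states a minimum read depth per sample, which does not give the reads behind a value.

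The 15897 genes were fitted with limma 3.58.1 in R 4.3.3 (8 groups and batch, empirical Bayes with a mean trend). The authors had already removed the batch, and the batch means were equal for all genes although the groups were not balanced over the batches. Their removal thus did not hold the groups in place, and the batch was kept in the fit for that reason. Fitted differences can therefore differ from differences of the group means. Diet over all genotypes came from an additive model with terms for genotype, diet and batch. The study's own count test could not be run without counts. In each of 17 comparisons the two-sided p-values of all genes were adjusted by Benjamini-Hochberg, at a threshold of 0.05. Each library came from a different mouse, and p-values measure the spread between mice.

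The 10 genes and all lists were chosen with earlier results of these data known. Named further genes were at most 15 past the threshold, ordered by p, and the 5 genes most like each class. Alternatives were quantile normalization, a filter at the 25th percentile, no mean trend, batches apart or omitted, and only the groups compared. Each mouse was also left out. A further alternative was a score of each mouse's full values along the first principal component of the residuals, which can carry group and diet differences. Another 3 were added after seeing the data (exact copies counted once, the prefix of the mouse label, choroid plexus markers). Scripts were tested on simulated data. Python 3.11.15, pandas 2.3.3, numpy 2.4.6 and matplotlib 3.10.9 were used.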

Additional observations from a re-analysis of the deposited data

Results flagged for a closer look

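The 8 groups of 4 to 6 mice were examined for each of the 10 members, 80 sets in all. Of these, 6 held a mouse far from the others of its group by Dixon's criterion, while chance gives about 1 in 20. The sets reuse the same mice over correlated genes, so they are not independent, and no excess over chance is claimed. In A+Tw/TWD mice replicate 6 was the highest for H2-D1, at 11.345 where the next mouse had 10.55, and for Tap1, at 7.889 where the next had 7.23. In A+Tw/STD mice replicate 2 was the highest for Cd74, at 9.544 where the next had 8.47, and for H2-Aa, at 7.892 where the next had 6.97. In A+T+/STD mice replicate 4 was the lowest for Cd74, at 8.444 where the next had 8.94. In AwT+/TWD mice replicate 1 was the lowest for Tapbp, at 8.467 where the next had 8.86, and the same mouse had the lowest value of all 45 mice for Cd74 (5.99), H2-Aa (5.28) and H2-Ab1 (5.43). Without A+Tw/TWD replicate 6 the pooled A+ differences were 1.18 for Cd74, 0.66 for H2-Aa and 0.74 for H2-Ab1, and Tapbp was no longer called (adjusted p = 0.0529).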

How the results depend on the processing

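Counts of members called are given for each alternative that moved them by more than 1.5 times, and causes were not tested. The shares of all genes called under the alternatives are not given, so these counts cannot be set against a background. For A+ against Aw over tau and diet, 9 members were called, 7 to 10 when 1 mouse was left out, 3 in batch 0 alone, 3 in batch 1 alone and 5 with the choroid plexus covariate. For A+Tw against AwTw on STD the count was 2, 0 to 3 when 1 mouse was left out, 0 in batch 0 alone, 0 in batch 1 alone, 1 after quantile normalization and 0 with only the groups compared. On TWD it was 2, 0 to 2 when 1 mouse was left out, 1 without the batch covariate, 1 in batch 0 alone, 0 in batch 1 alone, 1 among genes above the 25th percentile, 0 with only the groups compared, 4 with the residual score, 1 with the prefix of the mouse label and 0 with the choroid plexus covariate. For A+T+ against AwT+ on STD it was 1, 0 to 2 when 1 mouse was left out, 0 in each batch alone, 5 with only the groups compared and 3 with the residual score. For A+T+ against AwTw it was 3 on STD, 0 to 4 when 1 mouse was left out, 0 in each batch alone and 0 with the choroid plexus covariate, and on TWD it was 0, but 2 with the residual score.

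For diet in AwTw mice the count was 1, 0 to 3 when 1 mouse was left out, 2 without the batch covariate, 0 in batch 0 alone, 3 in batch 1 alone, 0 after quantile normalization, 3 among genes above the 25th percentile, 0 without the mean trend, 0 with only the groups compared, 0 with the residual score, 0 with the prefix of the mouse label and 3 with the choroid plexus covariate. For diet over all genotypes it was 4, 3 to 5 when 1 mouse was left out, 0 in batch 0 alone, 0 with the residual score and 8 with the choroid plexus covariate. The diet difference changed sign for B2m in batch 1 alone (-0.17), and its values ran from -0.0214 to 0.0599 when 1 mouse was left out, below 0 without AwT+/TWD replicate 4 or A+Tw/STD replicate 4 (-0.0024), for Tapbp in batch 0 alone (-0.12) and with the residual score (-0.0292), and in batch 0 alone for Cd74 (-0.19) and H2-Aa (-0.0714).

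Psmb9 fell below the 25th percentile of mean value and had no value there. No paired analysis was possible because the replicate numbers were given in accession order and pair no mice across groups. Without counts the depth behind each value, and so any limit it sets, is unknown. A+Tw/STD had 1 mouse in batch 0, which the fit of batch 0 alone assumes to vary like the other groups, so its count of 0 says nothing of stability.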
